A study of Mus musculus with 4 samples.

Results

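The 33 genes described here encode the signaling parts of the B cell receptor and the surface proteins and transcription factors of mature B cells. They were taken as a list of gene symbols without immunoglobulin genes, and all 33 were found among the 55401 genes of the deposited tables. RNA was sequenced in bulk from sorted CD45+ cells (all leukocytes) of the dura mater, the outer meningeal layer, from wild-type male C57BL/6J mice. AAV-mVEGF-C mice had received an adeno-associated virus encoding mouse VEGF-C, the growth factor of lymphatic vessels, into the cisterna magna at 4 wk of age. AAV-CTRL mice had received in the same way a virus encoding an immunoglobulin fusion of the VEGFR-3 domains that do not bind VEGF-C, so both groups carried a virus and expressed a secreted protein. Each group had 2 libraries, each made from the cells of 10 to 12 pooled mice. AAV-CTRL 1 and 2 are called the control pools, AAV-mVEGF-C 1 and 2 the VEGF-C pools, and paired values follow the pool numbers. The time between injection and this sort is not given in the sources used here.

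In a B cell, the membrane immunoglobulin recognizes antigen, and the CD79A and CD79B chains beside it carry the signal into the cell. The kinases LYN, BLK, SYK, and BTK and the adaptor BLNK pass it on to phospholipase C gamma 2 and phosphoinositide 3-kinase. Coreceptors such as CR2 strengthen the signal, and inhibitory receptors such as CD22 and CD72 restrain it. PAX5 keeps cells in the B lineage, and its loss accompanies the step from B cell to antibody-secreting plasma cell. The dura and the neighboring skull marrow are known to hold B cells at several stages of development.

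The reads assigned to genes ranged from 32520709 to 46409700 per library, and *Ptprc*, which encodes CD45, was at 946 to 1151 CPM (reads per 1000000 reads, with TMM scaling) in the 4 libraries. AAV-CTRL 1 stood apart, with 20990 detected genes against 29221 to 37512 in the other libraries. The members together took 0.339% and 0.444% of the assigned reads in the control pools, and 0.354% and 0.369% in the VEGF-C pools. Of the members, 14 are known mainly from B cells, and the other 19 are also used by other leukocytes. In bulk RNA, fewer B cells and less RNA per B cell cannot be told apart.

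RefSeq promoter sequences (GRCm38.p6) were matched for 25 of the 33 members. The upstream bases of 3 of them are printed because these genes carry the main pattern described below: *Cd79a* with chr7:24897247-24897380 (plus strand), *Cd72* with chr4:43454629-43454876 (minus strand), and *Spib* with chr7:44532072-44532321 (minus strand). They are written 5' to 3' on the strand of the gene. Capitals mark GAGGAA or its reverse complement TTCCTC, the core to which the ETS factors PU.1 and Spi-B bind. Bases past the first transcript start of GENCODE M21 were left out.
Cd79a: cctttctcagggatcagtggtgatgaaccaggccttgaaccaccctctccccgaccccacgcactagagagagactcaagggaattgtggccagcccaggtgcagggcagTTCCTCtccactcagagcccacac
Cd72: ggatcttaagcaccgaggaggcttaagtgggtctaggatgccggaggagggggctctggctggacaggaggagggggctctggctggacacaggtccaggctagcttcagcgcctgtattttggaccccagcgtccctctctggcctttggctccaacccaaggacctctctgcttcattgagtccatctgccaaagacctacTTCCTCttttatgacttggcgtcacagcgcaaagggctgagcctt
Spib: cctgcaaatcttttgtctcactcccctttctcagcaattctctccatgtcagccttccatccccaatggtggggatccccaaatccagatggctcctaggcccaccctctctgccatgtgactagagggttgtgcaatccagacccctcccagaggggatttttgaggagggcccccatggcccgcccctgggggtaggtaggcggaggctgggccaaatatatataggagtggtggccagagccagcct
Over the 250 bases before the RefSeq start and on both strands, GAGGAA was found in 10 of the 25 members with a promoter and in 4 of the 11 known mainly from B cells (*Cd79a*, *Cd72*, *Fcrl1*, and *Fcrla*). The share among all promoters was 23.3%. Shares of all promoters are counted per promoter, while a member was counted if any of its promoters matched, so the units differ. The octamer ATGCAAAT, the core bound by Oct-2, the product of *Pou2f2*, was found in 1 of the 25 members, *Blnk*, against 1.60% of all promoters. A match describes letters in the window only.

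The first question was whether the members differed in AAV-mVEGF-C mice. None of the 33 members passed the test, with an adjusted p of 0.999 for each (edgeR quasi-likelihood test, Benjamini-Hochberg adjustment over 19806 genes). All 33 had passed the filter on low counts. The background was also 0% of the genes tested. DESeq2 called none of the members either, against 0.332% of the genes to which it gave an adjusted p. In DESeq2, 5 members had an unadjusted p under 0.05, against 2.1% of the 40674 genes to which it gave a p. Of the members, 23 had a lower fitted level in the VEGF-C pools, and the median log2 fold change was -0.16, against 0.003 over all genes tested. The median was -0.33 for the 14 genes known mainly from B cells, of which 12 were lower, and -0.03 for the 19 shared genes, of which 11 were lower. Unadjusted p values under 0.05 were obtained for *Ms4a1*, which was lower (background 1.18% of genes), and for *Cd80* and *Cd5*, which were higher (background 1.46%). In CPM, both VEGF-C pools lay below both controls for 4 members, *Lyn*, *Vav1*, *Cd24a*, and *Ms4a1*, against 15.2% of all genes. They lay above both controls for 5, *Cd5*, *Fcrl5*, *Cd80*, *Cd86*, and *Bcl6*, against 16.8% of all genes. Members whose groups did not overlap were thus about as frequent as among all genes. On the TPM scale, which also divides by transcript length, 9 members were lower without overlap, against 28.5% of all genes, and 3 were higher, against 8.92%.

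**Figure D1:**
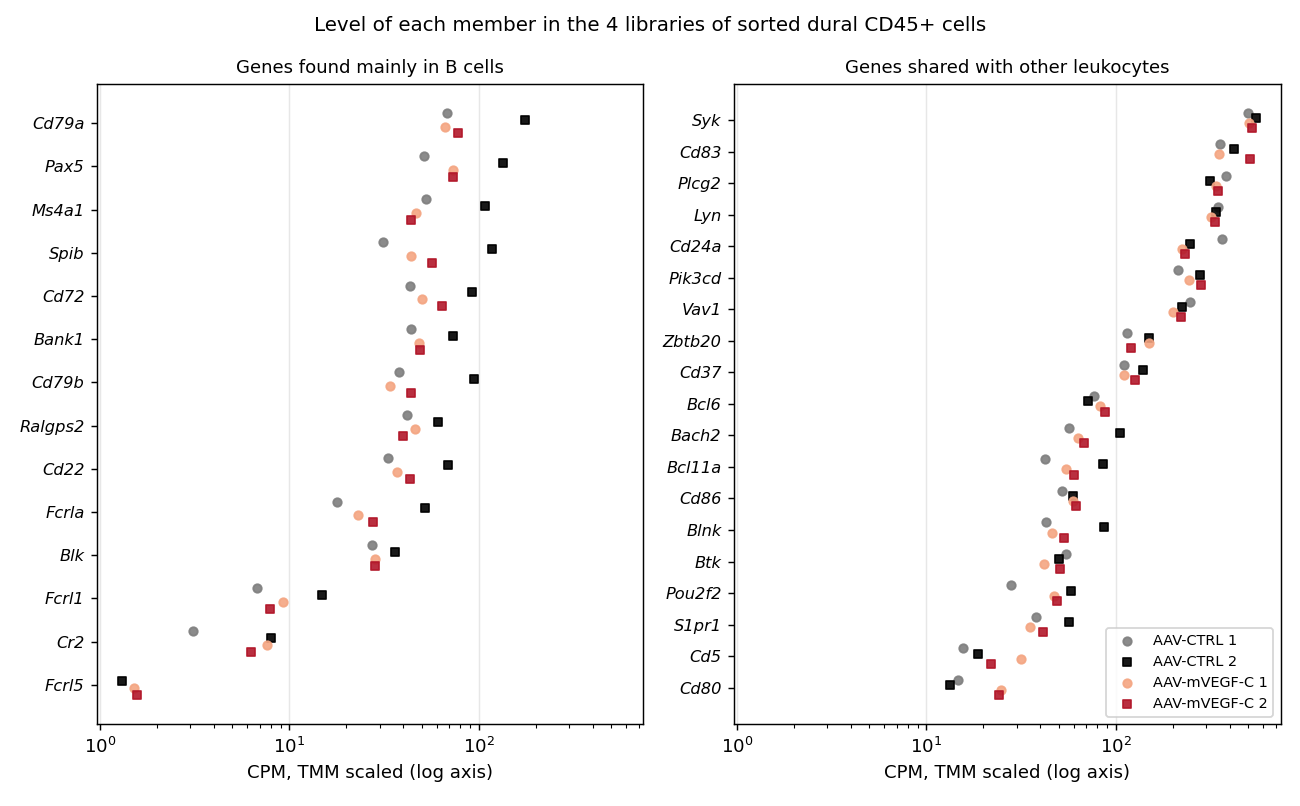
CPM of each member in the 4 libraries on a log axis, with genes known mainly from B cells at the left and genes shared with other leukocytes at the right. For 13 of the 14 genes at the left the black square of AAV-CTRL 2 is the highest point. *Fcrl5* had 0 reads in AAV-CTRL 1 and has no point for it.

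The clearest pattern in the members was a difference between the control libraries. AAV-CTRL 2 had the highest CPM of the 4 libraries for 21 of 33 members and for 13 of the 14 genes known mainly from B cells, against 24.8% of all genes. The median log2 difference between AAV-CTRL 2 and AAV-CTRL 1 was 1.10 for these 14 genes, 0.25 for the shared members, and 0.07 for all genes. Between AAV-mVEGF-C 2 and 1 it was 0.03 for the 14 genes. The mean of the VEGF-C pools was 0.29 above AAV-CTRL 1 and 0.75 below AAV-CTRL 2 on the log2 scale, as medians over the same 14 genes. By these medians the VEGF-C pools lay between the controls, nearer to AAV-CTRL 1. The summed CPM of the 14 genes was 460 and 1038 in the control pools, and 516 and 566 in the VEGF-C pools.

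Among the receptor chains, *Cd79a* (ENSMUSG00000003379.7, chr7:24897381-24902197, plus strand, GRCm38) was at 68.6 and 176 CPM in the control pools and at 66.1 and 78.4 CPM in the VEGF-C pools. *Cd79b* (ENSMUSG00000040592.11, chr11:106311340-106314760, minus strand) was at 38.0 and 94.5 CPM in the control pools and at 34.3 and 44.1 CPM in the VEGF-C pools. For both genes AAV-CTRL 2 alone was high, and the VEGF-C pools overlapped AAV-CTRL 1. The group means of *Cd79a* were 122 ± 76.0 CPM (SD, n = 2 libraries) and 72.2 ± 8.66 CPM (SD, n = 2), and its log2 fold change was -0.76 (SE 0.42). That of *Cd79b* was also -0.76 (SE 0.42). The 2 chains, which pair in the receptor, kept nearly the same ratio throughout: *Cd79a* had 1.80 and 1.86 reads per read of *Cd79b* in the control pools and 1.93 and 1.78 in the VEGF-C pools. On the TPM scale the ratio was 1.52 to 1.62 over the 4 libraries.

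*Ms4a1* (ENSMUSG00000024673.9, chr19:11249675-11266241, minus strand), which encodes the B cell antigen CD20, was at 52.8 and 108 CPM in the control pools and at 47.0 and 43.8 CPM in the VEGF-C pools. Of the 14 genes known mainly from B cells it was the one that was lower in both VEGF-C pools than in both controls. Its log2 fold change was -0.82 (SE 0.33, unadjusted p = 0.047, edgeR), and the gap to AAV-CTRL 1 was small beside that between the controls. *Cd37*, a tetraspanin of B cells and other leukocytes, was at 110 and 140 CPM in the control pools and at 111 and 127 CPM in the VEGF-C pools. *S1pr1*, the receptor by which lymphocytes leave tissues toward sphingosine-1-phosphate, was at 38.1 and 56.5 CPM against 35.3 and 41.2 CPM. *Ralgps2*, which encodes an exchange factor of the Ral GTPase, was at 41.9 and 60.9 CPM against 46.0 and 39.7 CPM. The groups overlapped for these 3 genes. *Cd24a*, which encodes a surface glycoprotein of immature B cells and also of neutrophils, was at 363 and 247 CPM in the control pools and at 225 and 231 CPM in the VEGF-C pools. It was highest in AAV-CTRL 1, as were 8 of 9 neutrophil genes, whose summed CPM was 26157 and 12089 in the control pools and 15389 and 17392 in the VEGF-C pools. The part of neutrophils in the level of *Cd24a* was not tested.

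Among the kinases and adaptors, the gap between the controls was wider for some genes than for others. *Blnk*, the adaptor that links SYK to its targets, was at 42.7 and 86.4 CPM in the control pools and at 46.0 and 53.4 CPM in the VEGF-C pools. *Bank1*, a B cell scaffold protein, was at 43.9 and 73.0 CPM against 48.5 and 49.2 CPM. *Blk*, a Src family kinase, was at 27.4 and 36.2 CPM against 28.4 and 28.5 CPM, the smallest gap between the controls among the genes known mainly from B cells (1.32-fold). In these 3 genes too AAV-CTRL 2 was the highest library. *Syk*, the kinase recruited by the receptor chains, was at 503 and 549 CPM in the control pools and at 505 and 526 CPM in the VEGF-C pools. *Lyn*, the kinase that starts and also restrains signaling, was at 347 and 340 CPM against 318 and 336 CPM. *Plcg2* was at 381 and 315 CPM against 337 and 347 CPM. For *Syk* and *Lyn* the libraries stayed within a narrow range, and *Plcg2* was highest in AAV-CTRL 1. *Vav1*, an exchange factor of Rac GTPases, was at 247 and 224 CPM in the control pools and at 200 and 221 CPM in the VEGF-C pools. *Btk*, the kinase that activates phospholipase C gamma 2, was at 54.6 and 50.4 CPM against 41.8 and 50.8 CPM. *Pik3cd*, which encodes the leukocyte catalytic subunit of phosphoinositide 3-kinase, was at 214 and 278 CPM against 243 and 284 CPM. Of the 9 kinases and adaptors, 8 were lower in the fit, with a median log2 fold change of -0.16, and the range was -0.38 to 0.10.

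Among the coreceptors and inhibitors, *Cd22*, an inhibitory receptor that binds sialic acid, was at 33.1 and 68.7 CPM in the control pools and at 37.2 and 43.4 CPM in the VEGF-C pools. *Cd72*, another inhibitory receptor, was at 43.6 and 92.1 CPM against 50.3 and 64.2 CPM. *Fcrla*, a member of the Fc receptor-like family that stays inside the cell, was at 17.8 and 52.0 CPM against 23.1 and 27.8 CPM. In each, AAV-CTRL 1 was the lowest and AAV-CTRL 2 the highest. *Fcrl1*, a surface receptor of the same family, was at 6.73 and 14.9 CPM in the control pools and at 9.27 and 7.89 CPM in the VEGF-C pools. *Cr2*, the complement receptor CD21, had VEGF-C pools nearer to AAV-CTRL 2, at 3.11 and 8.0 CPM in the control pools and 7.63 and 6.25 CPM in the VEGF-C pools. Its log2 fold change was 0.32 (SE 0.49). *Fcrl5*, a marker of innate-like and memory B cells, had 0 and 45 reads in the control pools and 59 and 50 reads in the VEGF-C pools. The 0 reads in AAV-CTRL 1 allow a level of up to 0.0671 CPM (3 reads, counting error only), while the other libraries were at 1.31 to 1.58 CPM. Its log2 fold change of 1.25 had an SE of 1.62. *Cd5*, an inhibitory receptor of B-1 cells and of most T cells, was at 15.6 and 18.7 CPM in the control pools and at 31.6 and 21.8 CPM in the VEGF-C pools. Both VEGF-C pools were above both controls, with a log2 fold change of 0.64 (SE 0.25, unadjusted p = 0.039, edgeR). Of 11 T cell genes, 9 had a higher fitted level in the VEGF-C pools, and their summed CPM was 403 and 358 in the control pools and 445 and 440 in the VEGF-C pools. Their part in the level of *Cd5* was not tested.

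Among the transcription factors, *Spib* (ENSMUSG00000008193.13, chr7:44525993-44532071, minus strand), an ETS factor of B cells and plasmacytoid dendritic cells, was at 31.4 and 118 CPM in the control pools and at 43.9 and 57.0 CPM in the VEGF-C pools. The controls differed 3.75-fold, the widest gap among the members with reads in every library. *Pax5* (ENSMUSG00000014030.15, chr4:44524757-44710487, minus strand) was at 51.8 and 135 CPM against 73.2 and 73.7 CPM, and its log2 fold change was -0.34 (SE 0.42). *Bach2*, a repressor that delays plasma cell differentiation, was at 56.9 and 105 CPM against 63.3 and 68.1 CPM. *Bcl11a*, required for early lymphoid development, was at 42.5 and 85.6 CPM against 54.4 and 60.3 CPM. In each of these 4 factors AAV-CTRL 1 was the lowest, AAV-CTRL 2 the highest, and the VEGF-C pools lay between them. *Pou2f2*, encoding Oct-2, was at 27.9 and 58.0 CPM in the control pools and at 47.0 and 48.7 CPM in the VEGF-C pools. *Zbtb20*, a factor of long-lived plasma cells that myeloid cells also express, was at 114 and 150 CPM against 150 and 121 CPM. *Bcl6*, the factor of germinal center B cells that is also expressed in myeloid cells, was at 77.0 and 71.3 CPM against 82.1 and 87.6 CPM, with a log2 fold change of 0.19 (SE 0.15). Of the 7 factors, 4 were lower, with a median of -0.16.

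The costimulatory molecules had higher fitted levels in the VEGF-C pools. For *Cd86* (log2 fold change 0.12, SE 0.16) and *Cd83* (0.15, SE 0.23) the difference was smaller than its SE. That of *Cd86* was -0.063 in TPM with a pseudocount of 1, and that of *Cd83* was -0.14 without AAV-mVEGF-C 2. *Cd80* (ENSMUSG00000075122.5, chr16:38455561-38496335, plus strand), a ligand of CD28 and CTLA-4, was at 14.7 and 13.3 CPM in the control pools and at 24.9 and 24.3 CPM in the VEGF-C pools. The libraries agreed closely within each group, at 14 ± 1.01 CPM (SD, n = 2) and 24.6 ± 0.416 CPM (SD, n = 2). Its log2 fold change was 0.81 (SE 0.19) with the lowest unadjusted p of the members (0.00499), and the adjusted p was 0.999 (edgeR), or between 0.0459 and 1 over the 13 alternatives. *Cd86*, the other ligand of the same receptors, was at 52.2 and 59.3 CPM in the control pools and at 59.6 and 61.8 CPM in the VEGF-C pools. *Cd80* had 0.282 and 0.224 CPM per CPM of *Cd86* in the control pools and 0.418 and 0.393 in the VEGF-C pools. The ratio thus did not overlap between groups, but neither did *Cd80* alone, and the ratio was chosen after the values were seen. In CPM, 16.8% of all genes were higher without overlap, and no such share was obtained for ratios. *Cd83*, an activation marker of dendritic cells and B cells, was at 354 and 421 CPM against 353 and 510 CPM. These genes are also expressed by dendritic cells and macrophages. Of 8 dendritic cell genes, 5 were higher, and their summed CPM was 272 and 349 in the control pools and 327 and 344 in the VEGF-C pools. Of 10 macrophage and monocyte genes, 8 were lower, but only 1 without overlap, and AAV-CTRL 2 was the highest library for 7. Their summed CPM overlapped between groups, at 5745 and 5974 in the control pools and 4932 and 6274 in the VEGF-C pools. The cells that carried *Cd80* were not tested.

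**Figure D2:**
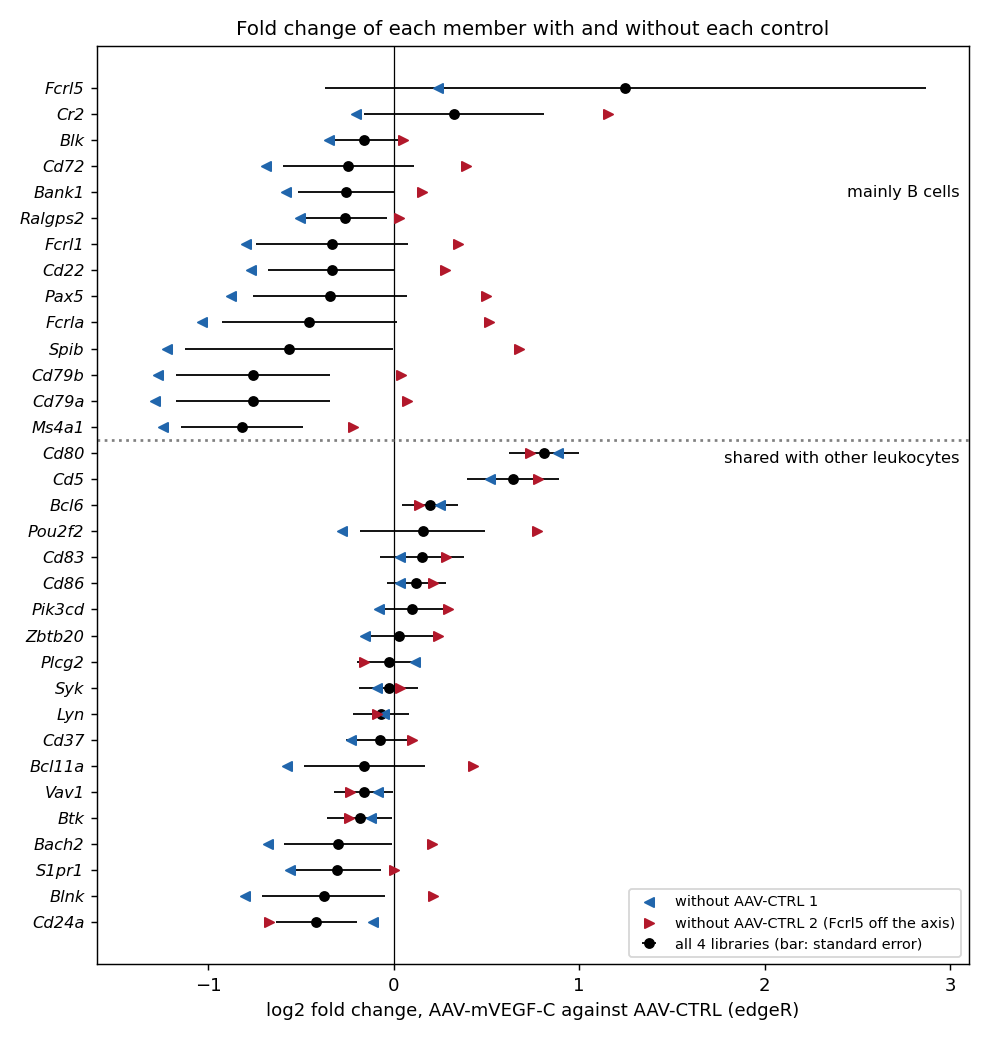
Fitted log2 fold change of each member (AAV-mVEGF-C against AAV-CTRL), with black points and standard error bars for all 4 libraries, blue triangles without AAV-CTRL 1, and red triangles without AAV-CTRL 2. For most B cell genes the triangles lie on opposite sides of 0. *Ms4a1* and *Fcrl5*, whose red triangle is off the axis, keep the same side. Among the shared genes, *Cd80*, *Cd5*, *Bcl6*, *Cd86*, *Cd83*, *Lyn*, *Btk*, *Vav1*, and *Cd24a* also do.

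The direction for the B cell genes depended on which control was kept. With a single library in a group, that library is assumed to vary as the other group does. Without AAV-CTRL 1, the median log2 fold change of the 14 genes was -0.78, and 13 of 14 were lower. Of the members, 8 then passed the test (*Ms4a1*, *Cd79a*, *Cd79b*, *Spib*, *Pax5*, *Fcrla*, *Blnk*, and *Cd22*), all lower, against 1.07% of all genes. Adjusted p in this fit was 0.0016 for *Ms4a1* and 0.00165 for *Cd79a* (edgeR), and over the 13 alternatives it ranged up to 1 for both. Without AAV-CTRL 2, the median was 0.31, and 1 of 14 was lower, *Ms4a1*, at -0.22. Of the members, 4 then passed the test, against 9.08% of all genes. They were *Fcrl5*, *Pou2f2*, and *Cd80*, which were higher, and *Cd24a*, which was lower. *Fcrl5* was there compared with the library that held 0 reads of it. For *Ms4a1* the direction was the same without either control, and for *Cd80* the log2 fold change was 0.89 without AAV-CTRL 1 and 0.74 without AAV-CTRL 2. When genes with few reads were kept (40674 genes), 3 members passed, *Cd79a*, *Cd79b*, and *Ms4a1*, all lower, against 0.659% of genes.

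Levels were also compared within the B cell genes, as log2(CPM + 1) minus the median of the 14 genes in the same library. This measure was chosen after the values had been seen, and it carries no test. *Ms4a1* was 0.56 and 0.60 above the median in the control pools and 0.21 and 0.01 above it in the VEGF-C pools. *Cd79a* was 0.93 and 1.30 above it in the control pools and 0.70 and 0.83 above it in the VEGF-C pools. *Cd79b* was at 0.10 and 0.41 in the control pools and at -0.23 and 0.02 in the VEGF-C pools. These 3 of the 14 genes were lower in both VEGF-C pools than in both controls, against 1.15% of all genes on this measure, and none of the shared members was. *Cr2* was at -3.15 and -3.00 in the control pools and at -2.26 and -2.62 in the VEGF-C pools, and *Fcrl5* was also higher, so 2 of the 14 genes lay above both controls, against 24.4% of all genes. Both shares over all genes rest on the gap between the controls that the 14 genes carry and most genes do not. Among the shared members, *Pou2f2* was at -0.34 and -0.28 against 0.21 and 0.15, and *Bcl11a*, *Cd5*, and *Cd80* were also above both controls, which makes 4 of 19, near the share among all genes. The remaining 9 genes known mainly from B cells overlapped between groups.

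**Figure D3:**
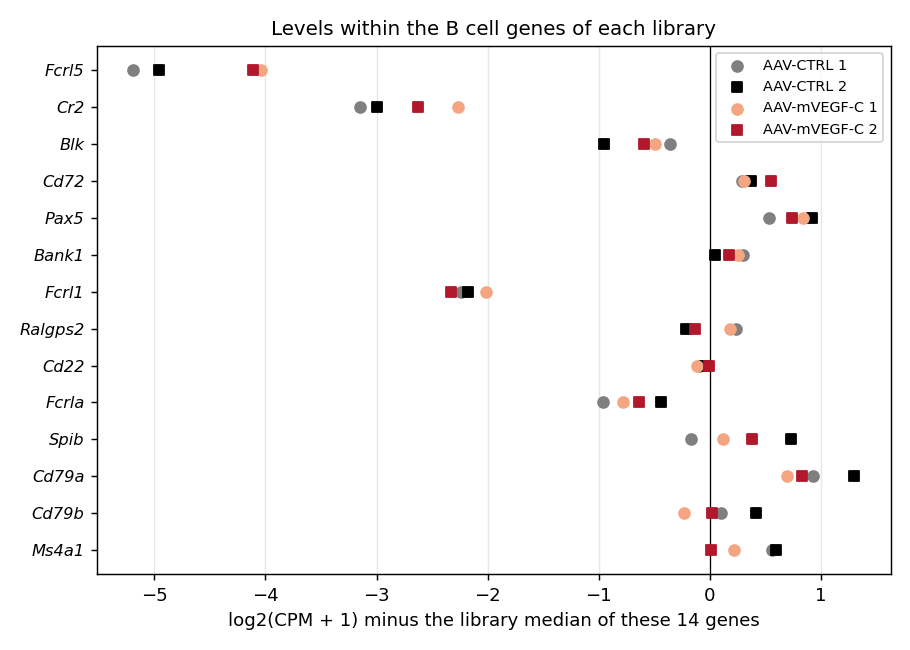
log2(CPM + 1) of the 14 genes known mainly from B cells after the median of these genes in each library was subtracted, with one point per library. *Ms4a1*, *Cd79b*, and *Cd79a* at the bottom are lower in both VEGF-C pools (red and orange) than in both controls (gray and black), and *Fcrl5* and *Cr2* at the top are higher.

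Genes outside the members gave the setting. Of 15 other genes of mature B cells, 0 passed the test at an adjusted p under 0.05 (edgeR; 1 had an unadjusted p under 0.05), 12 were lower, and the median log2 fold change was -0.20, with AAV-CTRL 2 the highest for 11. Among the most abundant of them were *Ccr7*, *Gpr183*, and *Cd55*, which other leukocytes also express, and *Cd55* was the one with the low p, at 70.3 and 66.8 CPM in the control pools and 52.2 and 48.9 CPM in the VEGF-C pools (log2 fold change -0.44, SE 0.15). Of 30 other genes of the receptor pathway, such as *Inpp5d*, *Cbl*, and *Ptpn6*, 18 were higher, 12 were lower, and the median was 0.05. *Inpp5d*, which encodes the inhibitory phosphatase SHIP1, was at 436 and 423 CPM against 427 and 448 CPM. Of 14 other transcription factors of the B lineage, such as *Ikzf1*, *Ets1*, and *Irf8*, 8 were lower, with a median of -0.09. An unadjusted p under 0.05 was obtained for *Ebf1* and *Id3* in this list, both lower and named after their values were seen (edgeR). *Ebf1*, which encodes a factor that specifies the B lineage with PAX5, was at 37.2 and 74.7 CPM in the control pools and at 31.9 and 27.6 CPM in the VEGF-C pools, with a log2 fold change of -0.91 (SE 0.33). The 6 fibroblast and stromal genes described below were also highest in AAV-CTRL 2 and lower in the fit, with a median of -0.92. The cells that carried *Ebf1* were not tested. *Id3*, an inhibitor of E proteins, was at 13.4 and 15.6 CPM against 6.78 and 9.78 CPM. Of 11 B cell precursor genes, 7 were lower, with a median of -0.46, and of 12 plasma cell genes, 11 were higher, with a median of 0.73. The unadjusted p (edgeR) was under 0.05 for 1 of the precursor genes, *Rag1*, which was lower, and for 0 of the 30 pathway genes. It was also under 0.05 for 4 of the plasma cell genes, *Jchain*, *Sdc1*, *Prdm1*, and *Txndc5*, which were higher. Over all genes tested, 1.18% were lower and 1.46% were higher at this threshold. None of the genes of these lists passed the test. *Jchain*, which encodes the joining chain of secreted antibody, had 3.81 and 1.53 CPM per CPM of *Cd79a* in the control pools and 10.2 and 8.68 in the VEGF-C pools. The ratio was higher in both VEGF-C pools, although it also differed between the controls, in which *Cd79a* itself was at 68.6 and 176 CPM.

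**Figure D4:**
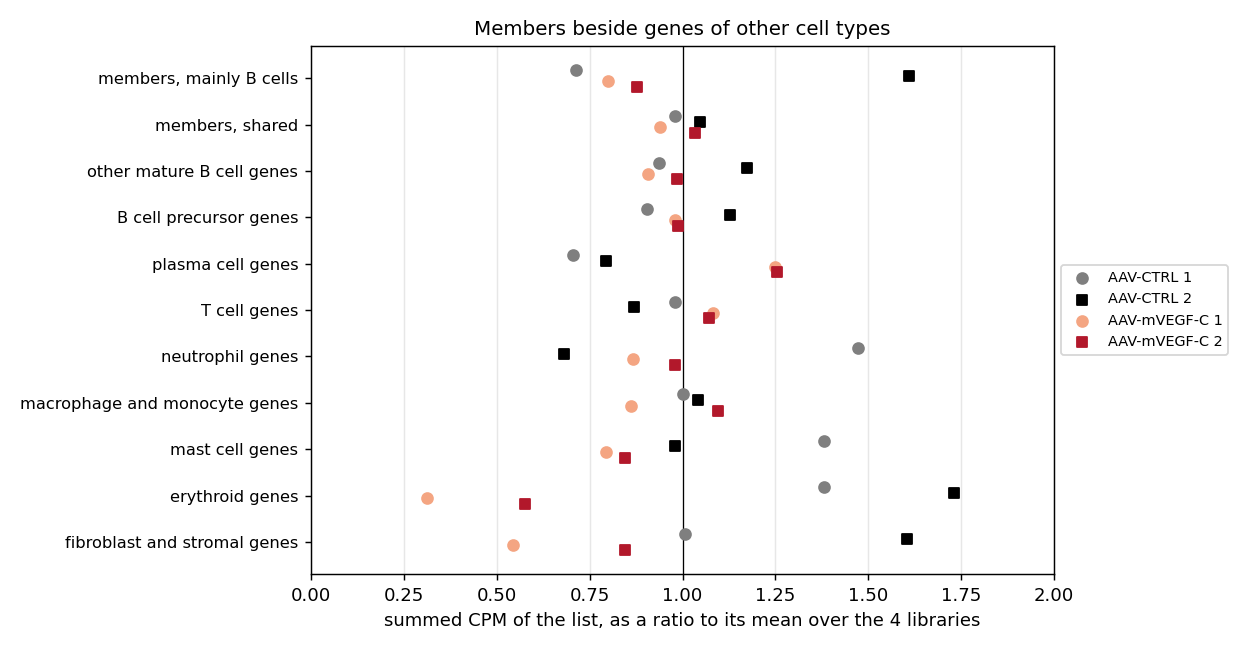
Summed CPM of each gene list in each library, as a ratio to the mean of the 4 libraries, with the members in the top 2 rows and lists of other cells beneath. AAV-CTRL 2 (black squares) is high for the B cell members and the stromal genes, AAV-CTRL 1 (gray circles) is high for the neutrophil and mast cell genes, and both are high for the erythroid genes.

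Genes of other cells also differed between the libraries, in more than one pattern. The 6 fibroblast and stromal genes, which a CD45+ sort should leave out, were summed to 653 and 1042 CPM in the control pools and to 354 and 549 CPM in the VEGF-C pools, and all 6 were highest in AAV-CTRL 2 and lower in the VEGF-C pools, with a median log2 fold change of -0.92. Of 6 erythroid genes, 5 were lower, with sums of 119 and 149 CPM in the control pools and 26.8 and 49.4 CPM in the VEGF-C pools. All 5 mast cell genes were lower, with sums of 2076 and 1471 CPM against 1196 and 1271 CPM, and all 5 were highest in AAV-CTRL 1. The part of such cells, of the number of B cells in each pool, and of the library that stood apart in the values of the members was not tested.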

How the data were processed

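The 4 libraries were grouped by their treatment labels, and AAV-mVEGF-C was compared with AAV-CTRL. The authors deposited expected counts, an estimated number of reads per gene without normalization (8.18% of values had decimals), and TPM values of the same genes. Per the labels, the library kit was a stranded one for very small amounts of total RNA, and the submitters' processing notes name mm10, FastQC, Trimmomatic, DRAGEN, and Picard; the counting program is not given in the sources used here. The labels call the RNA source single cell, but each table holds 1 column per pooled library.

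Counts were rounded and tested with edgeR 4.0.16 under R 4.3.3 (quasi-likelihood test, TMM, filterByExpr, all 4 libraries, no covariate), with Benjamini-Hochberg adjustment over 19806 of 55401 genes. The threshold was 0.05 and the common dispersion 0.173. The SE is the size of the log2 fold change divided by the square root of F. P-values measure the spread between pools. Depth was 32520709 to 46409700 reads per library, and intervals from counts cover counting error only. Scripts were tested on simulated data.

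The members, their grouping, and the other lists were chosen with earlier results of these data known. All members are named, and of other lists some of the genes with the highest mean CPM. Some genes of these lists are not reported here. *Jchain*, *Ptprc*, *Ebf1*, *Id3*, *Rag1*, *Sdc1*, *Prdm1*, the promoters printed, the ratios, the order of *Cd79a* and *Cd72*, and the relative levels were chosen after the values were seen. GENCODE M21 (GRCm38) gave the coordinates and RefSeq the promoters. Alternatives were DESeq2 1.42.0, limma-voom (limma 3.58.1), other scaling and filters, TPM with pseudocounts of 1 and 0.1, a replicate block, each library left out, and a crossed block, the last added after seeing the data. The block was the experiment number in the sample titles (exp1 or exp2). Same-numbered libraries did not deviate together (r = -0.13), and the column labels number the libraries differently, so the pairing is not settled.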

Additional observations from a re-analysis of the deposited data

How the results depend on the processing

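The count of 0 members past the threshold held in edgeR with all libraries (3 had an unadjusted p under 0.05) and in DESeq2 (5), which called 76 of all genes, and in all other alternatives except 3: 3 members passed with no filter on low counts, and from 0 to 8 when each library was left out in turn, with 8 without AAV-CTRL 1 and 4 without AAV-CTRL 2. Leaving out each library moved the median log2 fold change from -0.78 to 0.31 for the genes known mainly from B cells, from -0.11 to 0.20 for the shared genes, and from -0.28 to 0.21 for all members. In TPM, 9 members were lower without overlap, against 4 in CPM. The median log2 fold change of all genes was 0.003 in CPM and -0.11 in TPM with a pseudocount of 0.1. On the TPM scale with pseudocounts of 1 and 0.1, 3 members changed direction: *Pik3cd* (-0.11 and -0.11), *Bach2* (0.023 and 0.042), and *Cd86* (-0.063 and -0.064). With a replicate block, 0 members passed (11 of all genes), the median of the members was -0.16, and no call of a member changed. The number is that of the experiment in the sample titles, and the column labels number the libraries differently. A crossed replicate block, added after the data were seen, gave 0 members and 54 of all genes. With 1 library left out, 23 members changed direction in at least 1 fit. The ranges of the log2 fold change were -0.16 to 0.12 (*Plcg2*), -0.079 to 0.29 (*Pik3cd*), -0.20 to 1.15 (*Cr2*), -0.28 to 0.77 (*Pou2f2*), -0.15 to 0.24 (*Zbtb20*), and -1.29 to 0.071 (*Cd79a*). Further ranges were -1.27 to 0.038 (*Cd79b*), -0.35 to 0.048 (*Blk*), -0.090 to 0.033 (*Syk*), -0.80 to 0.21 (*Blnk*), -0.58 to 0.15 (*Bank1*), and -0.77 to 0.28 (*Cd22*). They were also -0.69 to 0.39 (*Cd72*), -1.03 to 0.51 (*Fcrla*), -0.80 to 0.35 (*Fcrl1*), -0.88 to 0.50 (*Pax5*), -1.23 to 0.68 (*Spib*), and -0.68 to 0.20 (*Bach2*). The remaining ranges were -0.58 to 0.43 (*Bcl11a*), -0.23 to 0.10 (*Cd37*), -0.56 to 0.0029 (*S1pr1*), -0.51 to 0.028 (*Ralgps2*), and -0.14 to 0.40 (*Cd83*). With 2 pools in a group, a difference as large as that between the controls cannot be told apart from one between groups. The cause of the dependence on the control library was not tested.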

Other observations

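The 2 deposited scales differed for some members. The TPM value per CPM depends on the transcript length used in each library and on a scale common to the library. After the median over the members was divided out, it varied 2.60-fold between libraries for *Cd22*, and from 1.05-fold for *Spib* to 1.77-fold for *Pax5* among the other members with reads in all 4 libraries. *Cd22* had 25.7 and 27.4 TPM in the control pools and 11.6 and 15.2 TPM in the VEGF-C pools, so that its groups did not overlap in TPM, while in CPM AAV-CTRL 1 was the lowest library. *Pax5*, *Btk*, *Plcg2*, *Syk*, and *Cd37* also did not overlap in TPM and overlapped in CPM. In turn *Lyn*, which was lower, and *Fcrl5* and *Cd86*, which were higher, did not overlap in CPM and overlapped in TPM. Which transcripts the reads of these genes came from was not tested.

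On the TPM scale, which allows genes to be set beside each other, the mean over the 4 libraries was highest for *Cd24a* (132 TPM) and *Cd83* (130 TPM), and the highest among the genes known mainly from B cells was *Cd79a* (52.3 TPM), followed by *Cd72* (49.3 TPM) and *Cd79b* (33.2 TPM). The lowest were *Cr2* (1.57 TPM) and *Fcrl5* (0.354 TPM). *Cd79a* was above *Cd72* in both control pools, at 36.6 and 101 TPM against 30.7 and 81.9 TPM. It was below *Cd72* in both VEGF-C pools, at 32.8 and 39.0 TPM against 38.7 and 46.0 TPM. The pair was picked after the values were seen, the order of other pairs was not examined, and this order carries no test.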
